A study of Mus musculus with 90 samples.

Results

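Transcripts of 7 genes of the B cell programme, Cd79a, Cd79b, Ms4a1, Blnk, Cd22, Bank1 and Pax5, were followed across melanoma tumours that differed in their outcome under an antibody against PD-L1. The genes were chosen by name as B cell genes, and each was read from 1 probe set. Where several probe sets named the gene and no other, the brightest on average was used. They are 7 of 18194 genes measured. RNA came from 90 subcutaneous melanoma allografts of the genotype Hgftg;Cdk4R24C/R24C, an Hgf transgene with a mutant Cdk4, from the strain B6.cBrd, and was read on 3 prime expression arrays. Levels are log2 values, so a difference of 1 is a doubling.

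All 90 tumours shared genotype, strain and site, and fell into 12 groups by study and outcome. In study 3, anti-mouse PD-L1 mIgG1 D265A at 10 mg/kg gave 3 stabilization, 3 relapse, 10 responder and 9 non-responder tumours, with 8 tumours under Normal IgG at 10 mg/kg and 4 under PBS at 10 ml/kg. In study 2 the same antibody and dose gave 3 relapse, 17 responder, 14 non-responder and 2 growth delay tumours, with 14 under Normal IgG and 3 under PBS. Responders shrank under treatment, stabilization tumours held their volume between measurements, non-responders grew, relapse tumours had regressed below a measurable volume and grown back, and growth delay tumours were first seen in mice already treated. Per the series' design text, the number of doses before harvest varied and non-responders were taken at time points matched to responders; the labels do not give it per tumour. In both studies the PBS, IgG and antibody arms carry separate blocks of animal numbers. The blocks follow one another in study 2 and lie far apart in study 3. A control comparison and a difference between such blocks or cohorts cannot be told apart.

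B cells sense antigen through a receptor made of a membrane immunoglobulin and the signalling chains CD79A and CD79B, encoded by Cd79a and Cd79b. The adaptor BLNK, also called SLP-65, and the scaffold BANK1 carry the signal inward, CD22 is an inhibitory receptor that restrains it, MS4A1 is the surface protein CD20, and PAX5 is the transcription factor that commits cells to the B lineage. In tumours, B cells can lie scattered among other leukocytes or gather with T cells in lymphoid aggregates. In bulk tumours, fewer cells of a type and less RNA per cell cannot be told apart.

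The promoters of 5 of the 7 genes (Bank1, Pax5, Cd79a, Cd22 and Blnk) are in RefSeq's table for GRCm38.p6, each from 250 bases before to 50 after a start site. They were searched on both strands for 3 motifs of B cell factors: the octamer ATGCAAAT (on the other strand ATTTGCAT), an EBF1 core CCCNNGGG, and a PU.1 core GAGGAA (on the other strand TTCCTC). Each promoter shown holds 1 match in all, so no matches overlap. Of 32851 promoters of the same length, 1.74% hold the octamer, 13.67% the EBF1 core and 28.28% the PU.1 core. A match is a description of letters and not a binding site. The promoters of Blnk (chr19:40994172-40994471, minus strand), Bank1 (chr3:136326017-136326316, minus strand) and Cd22 (chr7:30878979-30879278, minus strand) are shown because these 3 genes varied together across tumours, and that of Cd79a (chr7:24897247-24897546, plus strand) because its level hardly varied outside a few tumours. Capitals mark the motif match.
Blnk: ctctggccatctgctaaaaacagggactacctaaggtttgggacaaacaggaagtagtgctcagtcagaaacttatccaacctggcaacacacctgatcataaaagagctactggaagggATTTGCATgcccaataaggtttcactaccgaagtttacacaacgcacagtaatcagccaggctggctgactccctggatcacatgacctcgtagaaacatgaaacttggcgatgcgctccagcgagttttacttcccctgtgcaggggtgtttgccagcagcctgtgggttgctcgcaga
Bank1: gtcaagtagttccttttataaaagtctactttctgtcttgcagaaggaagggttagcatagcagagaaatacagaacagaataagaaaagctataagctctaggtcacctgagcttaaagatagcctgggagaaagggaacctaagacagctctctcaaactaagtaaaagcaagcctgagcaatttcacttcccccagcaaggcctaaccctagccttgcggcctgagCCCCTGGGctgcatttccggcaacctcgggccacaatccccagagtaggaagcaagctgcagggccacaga
Cd22: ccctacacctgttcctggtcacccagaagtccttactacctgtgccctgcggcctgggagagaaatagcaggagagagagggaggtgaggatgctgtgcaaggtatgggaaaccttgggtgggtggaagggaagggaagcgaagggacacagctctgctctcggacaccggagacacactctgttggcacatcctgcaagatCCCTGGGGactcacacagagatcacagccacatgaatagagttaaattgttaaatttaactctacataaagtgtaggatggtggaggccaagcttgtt
Cd79a: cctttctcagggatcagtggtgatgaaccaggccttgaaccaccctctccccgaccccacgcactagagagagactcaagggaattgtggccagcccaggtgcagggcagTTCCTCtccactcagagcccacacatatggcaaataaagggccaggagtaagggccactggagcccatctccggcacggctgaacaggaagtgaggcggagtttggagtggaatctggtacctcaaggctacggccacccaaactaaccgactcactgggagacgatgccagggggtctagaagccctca

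Blnk holds the octamer on the strand opposite to the one shown, with its first base at -130 from the start site. Bank1 and Cd22 each hold an EBF1 core, at -21 and -48. Cd79a holds a PU.1 core on the opposite strand at -140, and the Pax5 promoter holds none of the 3 motifs. None of these motifs is in all 3 windows of Blnk, Bank1 and Cd22.

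Median levels of Cd79b, Ms4a1, Blnk, Cd22 and Bank1 were highest in the stabilization, relapse and responder tumours of study 3. Group medians of Cd79a and Pax5 differed little. Both, like Ms4a1 and Bank1, are among the lowest 40% of genes by mean level. The Pax5 probe set read 6.39 in study 2 non-responder replicate 14, 0.49 above that group's median, where Ms4a1 stood 7.60 above. Whether it follows Pax5 RNA was not tested, so its flat medians do not show that Pax5 stayed at 1 level. Blnk had the widest span of group medians, with 9.74 in study 3 stabilization tumours and 6.27 in study 2 non-responders, an 11.1-fold difference. Group medians spanned 4.45-fold for Cd22, 3.87-fold for Bank1, 3.57-fold for Ms4a1 and 3.53-fold for Cd79b. They spanned 1.42-fold for Cd79a and 1.21-fold for Pax5. For Blnk, Bank1 and Cd79b the highest and lowest groups belong to different studies, so study and outcome cannot be told apart in those spans. For every gene, the ranges overlapped in all 11 pairs of groups that are neighbours in the order of medians. The groups at the top and bottom of the order, picked as the extremes of these same medians, did not overlap for Cd79b and Bank1. Each of those pairs sets 3 tumours against the 2 growth delay tumours of study 2. For the other 5 genes the top and bottom groups overlapped. The share of all genes without such overlap was not counted, so this is no result about Cd79b and Bank1.

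**Figure D1:**
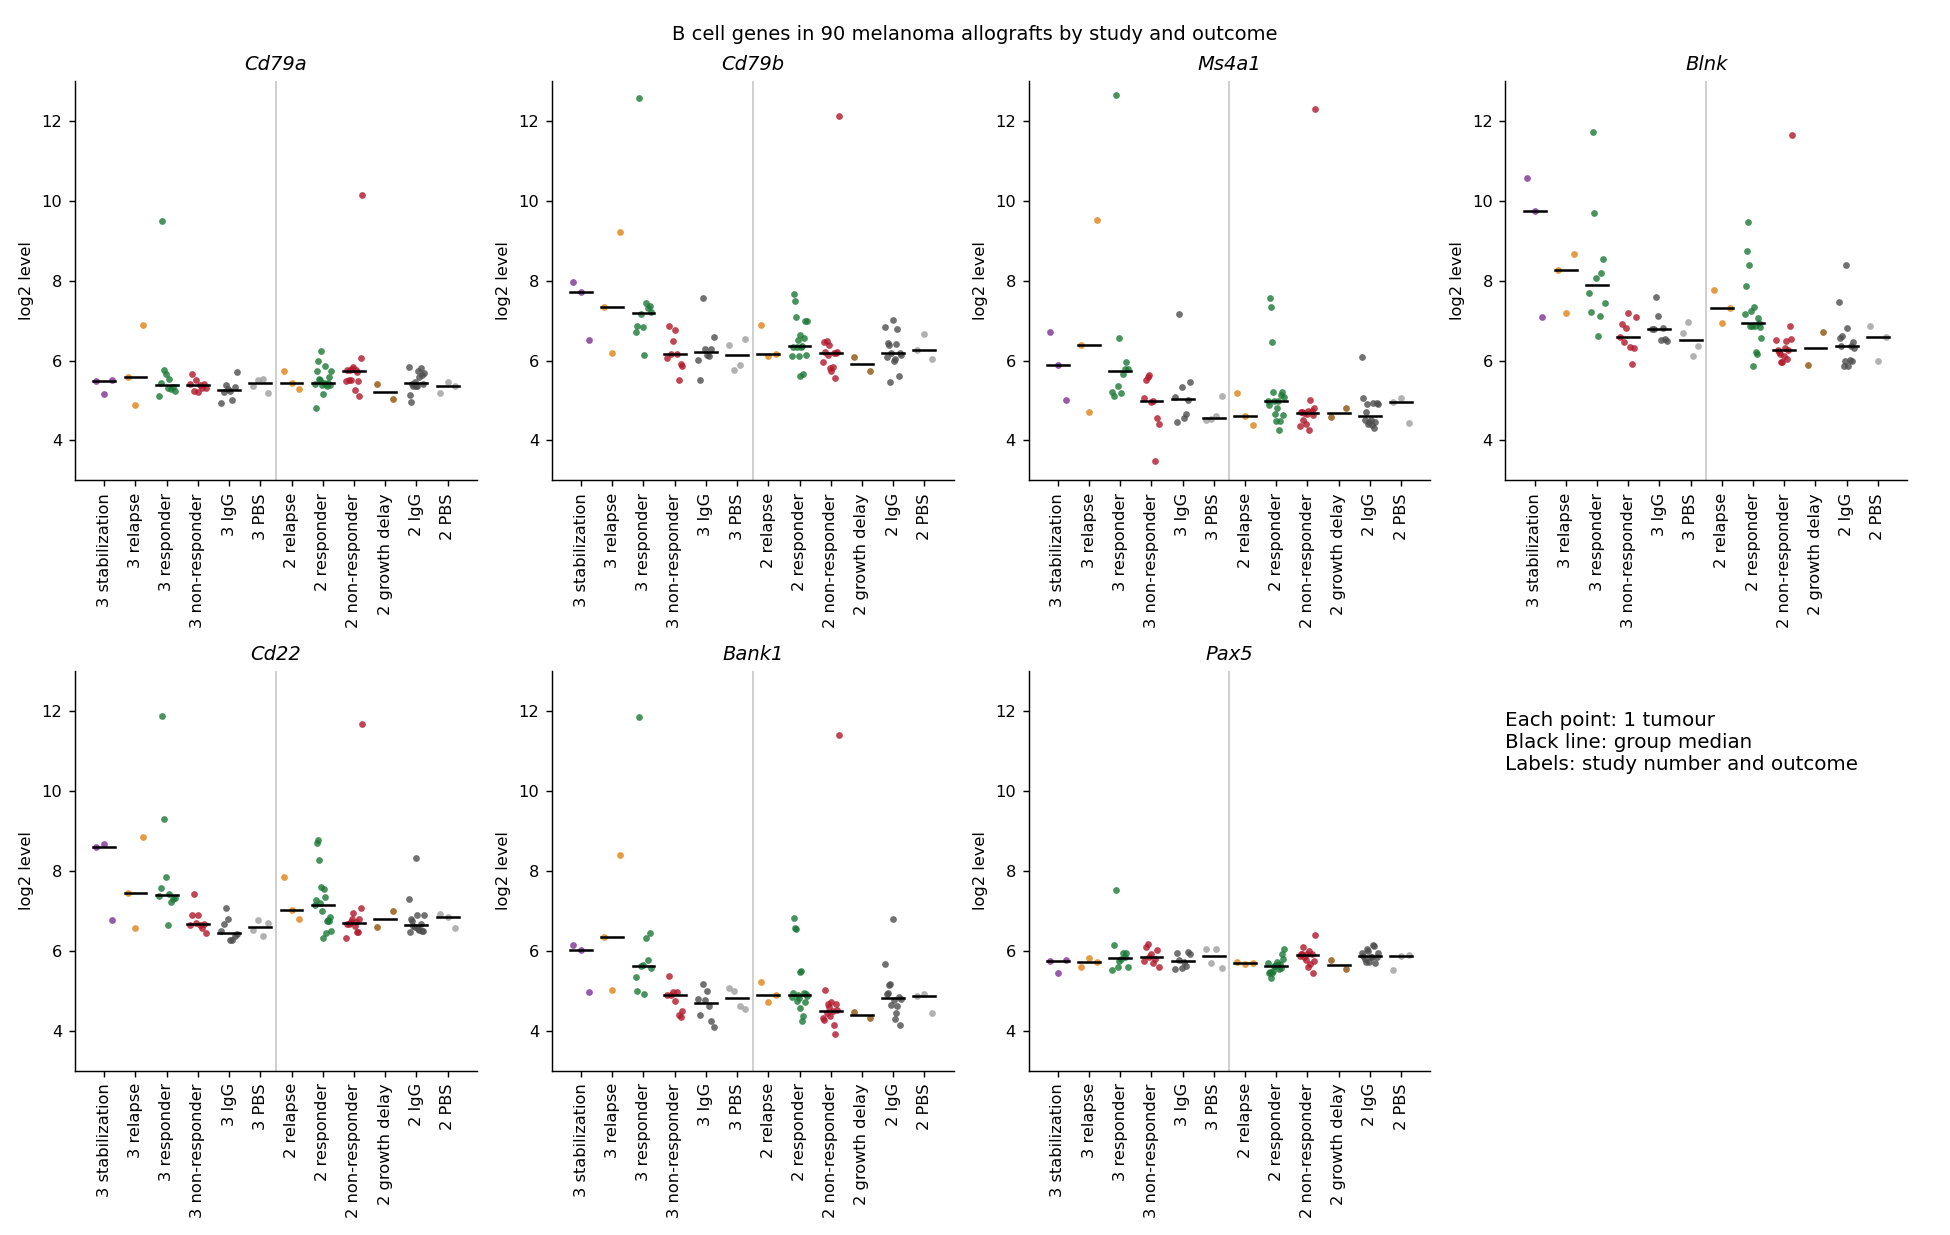
Log2 level of each gene in each of the 90 tumours (points) and the group median (black line), with study 3 left of study 2. Single tumours stand over 2 log2 units above the median of their group in every gene except Pax5. The highest Pax5 level, 7.53 in study 3 responder replicate 3, stands 1.71 above its group median. The 2 highest tumours, 1 study 3 responder and 1 study 2 non-responder, recur across genes.

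Set against the IgG median of the same study, Blnk was higher by 2.96 in stabilization, 1.49 in relapse and 1.10 in responder tumours of study 3, and by -0.18 in non-responders. In study 2 the same differences were 0.95 in relapse, 0.58 in responder, -0.09 in non-responder and -0.06 in growth delay tumours. Cd22 ran from 2.15 in study 3 stabilization tumours to 0.05 in study 2 non-responders. Bank1 was highest against IgG in study 3 relapse tumours, by 1.65, and lay 0.43 below IgG in growth delay tumours. The largest such difference of Cd79a was 0.32 and of Pax5 -0.24. These differences of medians describe the groups and were not tested.

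**Figure D2:**
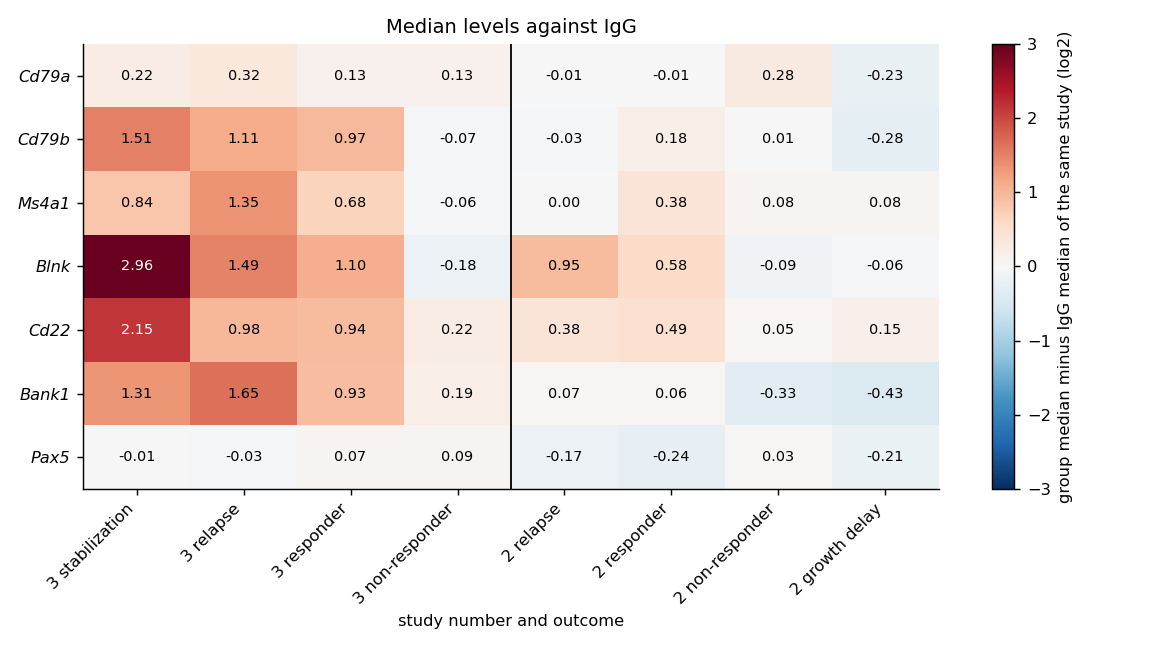
Median log2 level of each gene in each anti-PD-L1 outcome group minus the IgG median of the same study (colour and printed value), study 3 left of the line and study 2 right of it. The warm block covers Cd79b, Ms4a1, Blnk, Cd22 and Bank1 in study 3 stabilization, relapse and responder tumours, up to 2.96 for Blnk.

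The main question of the design is how tumours that responded differ from tumours that did not. Over both studies, 4 of the 7 genes were higher in responders by limma at an adjusted p under 0.05 and 0 were lower, against 18.9% of all genes higher and 32.3% lower. Blnk, Bank1, Cd22 and Cd79b rose, and Ms4a1, Cd79a and Pax5 did not pass. The median log2 difference over the 7 genes was 0.71, beside -0.06 over all genes. Centring each array on its median moved the share of calls that were higher, over all genes, to 19.4%, against 36.8% without centring. Each tumour has an animal number of its own, so the p-values measure the spread between tumours.

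Blnk, the adaptor downstream of the receptor, had log2 levels from 6.63 through a median of 7.88 to 11.73 in study 3 responders, against 5.92, 6.60 and 7.20 in study 3 non-responders. In study 2 it ran from 5.86 through 6.94 to 9.46 in responders, against 5.96, 6.27 and 11.66 in non-responders. In study 3, 8 of 10 responders lay above the highest non-responder and all 10 above the non-responder median. In study 2, 14 of 17 responders lay above the non-responder median, yet 1 non-responder lay above every responder. Over both studies Blnk was 2.10-fold higher in responders, a log2 difference of 1.07 ± 0.29 (SE) with an adjusted p of 0.00278 by limma.

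Bank1, the scaffold, ran from 4.92 through 5.62 to 11.86 in study 3 responders, against 4.33, 4.89 and 5.36 in non-responders. Study 2 gave values from 4.24 through 4.89 to 6.82 in responders, against 3.90, 4.49 and 11.41 in non-responders. Study 3 had 7 of 10 responders above all non-responders, and study 2 had 15 of 17 responders above the non-responder median. The log2 difference over both studies was 0.83 ± 0.34 (SE), with an adjusted p of 0.0336 by limma.

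Cd22, the inhibitory receptor, ran from 6.64 through 7.39 to 11.89 in study 3 responders, against 6.43, 6.67 and 7.42 in non-responders. In study 2 it ran from 6.31 through 7.14 to 8.76 in responders, against 6.33, 6.70 and 11.68 in non-responders. In study 3, 5 of 10 responders exceeded all non-responders, and the other ranges overlapped. The log2 difference over both studies was 0.71 ± 0.26 (SE), with an adjusted p of 0.0191 by limma.

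Cd79b, a signalling chain of the receptor, ran from 6.14 through 7.19 to 12.58 in study 3 responders, against 5.51, 6.15 and 6.88 in non-responders. Study 2 gave values from 5.62 through 6.37 to 7.68 in responders, against 5.57, 6.19 and 12.12 in non-responders. In study 3, 6 of 10 responders lay above all non-responders, while in study 2 the medians differed by 0.17. Its log2 difference over both studies was 0.69 ± 0.30 (SE), with an adjusted p of 0.0458 by limma, near the threshold.

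Ms4a1, which encodes CD20, ran from 5.11 through 5.73 to 12.65 in study 3 responders, against 3.48, 4.99 and 5.64 in non-responders. In study 2 it ran from 4.26 through 5.00 to 7.57 in responders, against 4.26, 4.70 and 12.30 in non-responders. Responders sat above the non-responder median in 10 of 10 tumours of study 3 and 12 of 17 of study 2. The log2 difference of 0.74 ± 0.39 (SE) did not pass, with an adjusted p of 0.0991 by limma.

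Cd79a, the partner chain of Cd79b, ran from 5.11 through 5.39 to 9.49 in study 3 responders, against 5.21, 5.38 and 5.67 in non-responders. Study 2 gave values from 4.82 through 5.44 to 6.24 in responders, against 5.12, 5.73 and 10.15 in non-responders. Its medians in study 3 were almost equal, and in study 2 the responder median lay below that of non-responders by 0.29. The log2 difference over both studies was 0.01 ± 0.21 (SE), with an adjusted p of 0.966 by limma. Both chains belong to 1 receptor; whether their differences differ from each other was not tested.

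Pax5 ran from 5.52 through 5.82 to 7.53 in study 3 responders, against 5.59, 5.83 and 6.16 in non-responders. In study 2 it ran from 5.31 through 5.62 to 6.04 in responders, against 5.45, 5.89 and 6.39 in non-responders. In study 2, 15 of 17 responders lay below the non-responder median. The log2 difference over both studies was -0.07 ± 0.08 (SE), with an adjusted p of 0.426 by limma.

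Within study 3 alone, 4 of 7 genes were higher in responders by limma and 0 were lower, against 14.4% of all genes higher and 22.4% lower. The log2 differences were 1.61 ± 0.46 (SE) for Blnk, 1.47 ± 0.53 for Bank1, 1.36 ± 0.46 for Cd79b and 1.23 ± 0.41 for Cd22, with adjusted p-values of 0.00694, 0.0256, 0.0189 and 0.0167. Ms4a1 had a difference of 1.41 ± 0.61 and an adjusted p of 0.0581. Within study 2 alone, 0 of 7 passed by limma and 1, Pax5, had an unadjusted p under 0.05, against 0.616% of all genes called higher and 2.01% lower. The largest study 2 difference was 0.53 ± 0.36 (SE) for Blnk. The difference between the studies was itself tested: 0 of 7 genes passed by limma and 3 had an unadjusted p under 0.05 (Cd79a, Cd79b and Pax5), with 0% of all genes called. The effect in study 3 is therefore not shown to differ from that in study 2.

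A responder of study 3 and a non-responder of study 2 stood far above their groups, on opposite sides of the comparison. With a limit of 2 log2 units above the group median, study 3 responder replicate 3 and study 2 non-responder replicate 14 were far above their group in 6 of 7 genes, all except Pax5. Study 2 responder replicate 4 and study 3 relapse replicate 3 passed that limit in 2 genes each, and study 2 responder replicate 3, study 2 IgG replicate 7 and study 3 IgG replicate 3 in 1 gene each. Ms4a1 reached 12.65 in study 3 responder replicate 3, 6.92 above its group median, and 12.30 in study 2 non-responder replicate 14, 7.60 above its group median. Bank1 stood 6.24 and 6.91 above the group median in these tumours, in the same order, and Cd79b 5.38 and 5.92. Cd79a stood 4.10 and 4.42 above. The next highest Cd79a level was 6.90 in study 3 relapse replicate 3, 1.32 above its group median.

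**Figure D3:**
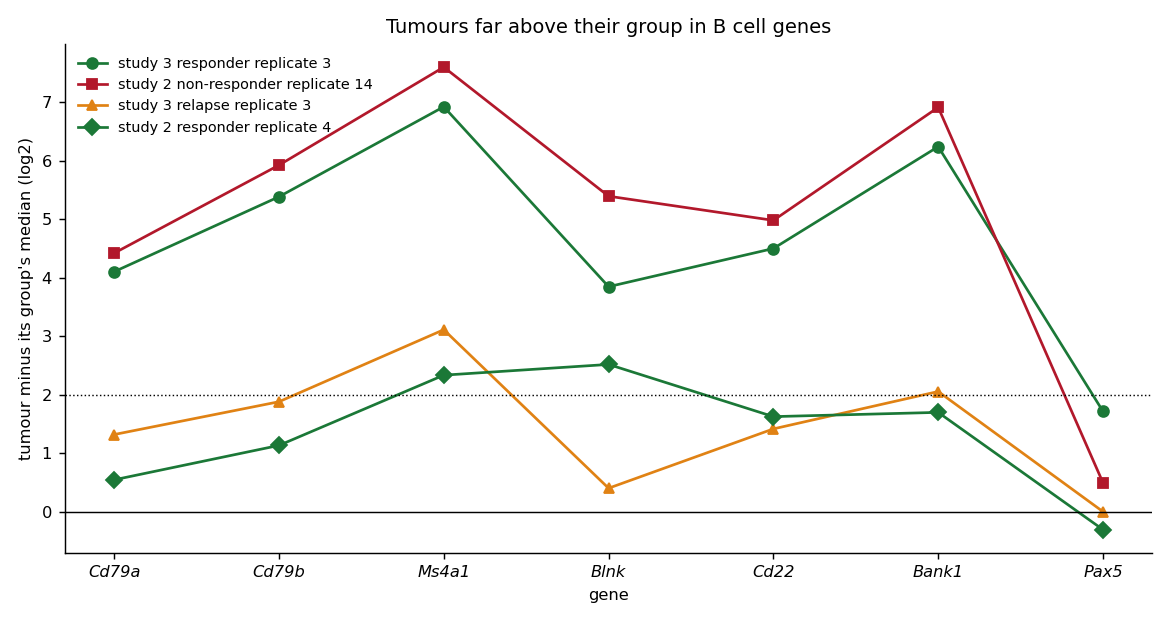
Difference on the log2 scale between a tumour and the median of its group, for each gene, in the 4 tumours that passed 2 log2 units (dotted line) in at least 2 genes. Study 3 responder replicate 3 and study 2 non-responder replicate 14 lie between 3.85 and 7.60 for every gene except Pax5.

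The same pair of tumours was high in other lymphoid transcripts. Of 18 other B cell surface and identity genes, 17 were above all other responders in study 3 responder replicate 3, and 18 were above all other non-responders in study 2 non-responder replicate 14. The pair was chosen by its B cell gene levels, so high levels of related genes follow in part from that choice. How many of all genes lie outside the rest of the group in these tumours was not counted. Such counts, here and for the lists below, therefore describe the 2 tumours only. Cr2, the complement receptor of mature B cells and follicular dendritic cells, read 9.20 and 8.46 in these tumours, against highest values of 4.51 and 4.72 in the rest of their groups. Glycam1, a glycoprotein of the high endothelial venules of lymph nodes, read 12.49 and 11.88, against highest values of 4.98 and 4.84. Cxcl13, the chemokine that draws B cells into follicles, read 10.66 and 10.03, against 7.41 and 6.32.

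Of 12 lymphoid tissue genes, 9 lay above the rest of the group in each of the pair, and Madcam1, an addressin of mucosal vessels, did not. The mean log2 level of that list was 8.11 in study 3 responder replicate 3, with other responders between 5.07 and 5.80, and 7.94 in study 2 non-responder replicate 14, with other non-responders between 4.82 and 5.25. Plasma cell genes averaged 10.68 and 11.02, with the others between 7.46 and 8.73 in study 3 and between 6.61 and 7.68 in study 2. T cell genes averaged 9.22 and 9.16, with the others between 6.03 and 8.19 and between 4.98 and 6.10. These lists share transcripts, so they are not separate observations.

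Tissue other than lymphocytes differed as well. Adipocyte genes averaged 10.88 in study 3 responder replicate 3 and 9.02 in study 2 non-responder replicate 14, and all 5 lay above the rest of each group. Melanocyte genes averaged 6.70 and 8.28, and 6 and 10 of 10 lay below the rest of the group; the lowest mean among the others was 6.65 in study 3 and 9.80 in study 2. Macrophage genes averaged 10.92 and 11.34, and 1 and 10 of 10 lay above the rest of the group. Of 7 skeletal muscle genes 0 lay above the rest of the group in either tumour. The part of adjoining tissue in the B cell levels of these tumours was not tested.

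Without these 2 tumours, 5 of 7 genes were higher in responders over both studies by limma and Pax5 was lower, against 19.4% of all genes higher and 33% lower. Blnk had a log2 difference of 1.07 ± 0.21 (SE), Bank1 0.77 ± 0.18, Cd22 0.68 ± 0.16, Ms4a1 0.66 ± 0.22 and Cd79b 0.62 ± 0.15, and Pax5 -0.14 ± 0.05. In study 2 alone 3 genes were then higher and Pax5 lower, against 7.57% of all genes higher and 10.7% lower: Blnk by 0.92 ± 0.26, Bank1 by 0.69 ± 0.22, Cd22 by 0.56 ± 0.20, and Pax5 by -0.20 ± 0.07. In study 3 alone 4 genes were higher, against 11.4% of all genes higher and 15.6% lower, with differences of 1.22 ± 0.33 for Blnk, 0.84 ± 0.28 for Bank1, 0.81 ± 0.24 for Cd79b and 0.79 ± 0.26 for Cd22. The pair was chosen by the levels of these same genes, so the direction in which its removal moves each study is fixed by that choice and no comparison between the studies is drawn from it.

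In study 2 without the high non-responder, 9 of 17 responders lay above all non-responders in Blnk and in Cd22, 8 in Cd79b, 7 in Ms4a1 and 5 in Bank1. In study 3 without the high responder, 7 of 9 responders lay above all non-responders in Blnk, 6 in Bank1, 5 in Cd79b and in Ms4a1, and 4 in Cd22. Leaving out study 3 responder replicate 3 alone gave another picture. Over both studies Blnk remained higher (0.88 ± 0.27, adjusted p of 0.00875 by limma) and Pax5 became lower. Cd79b (0.41 ± 0.25) and the other 2 calls were lost. The share of all genes called in that fit is given below with the other settings. Leaving out study 2 non-responder replicate 14 alone gave a Blnk difference of 1.26 over both studies and of 0.92 within study 2, both past the threshold.

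**Figure D4:**
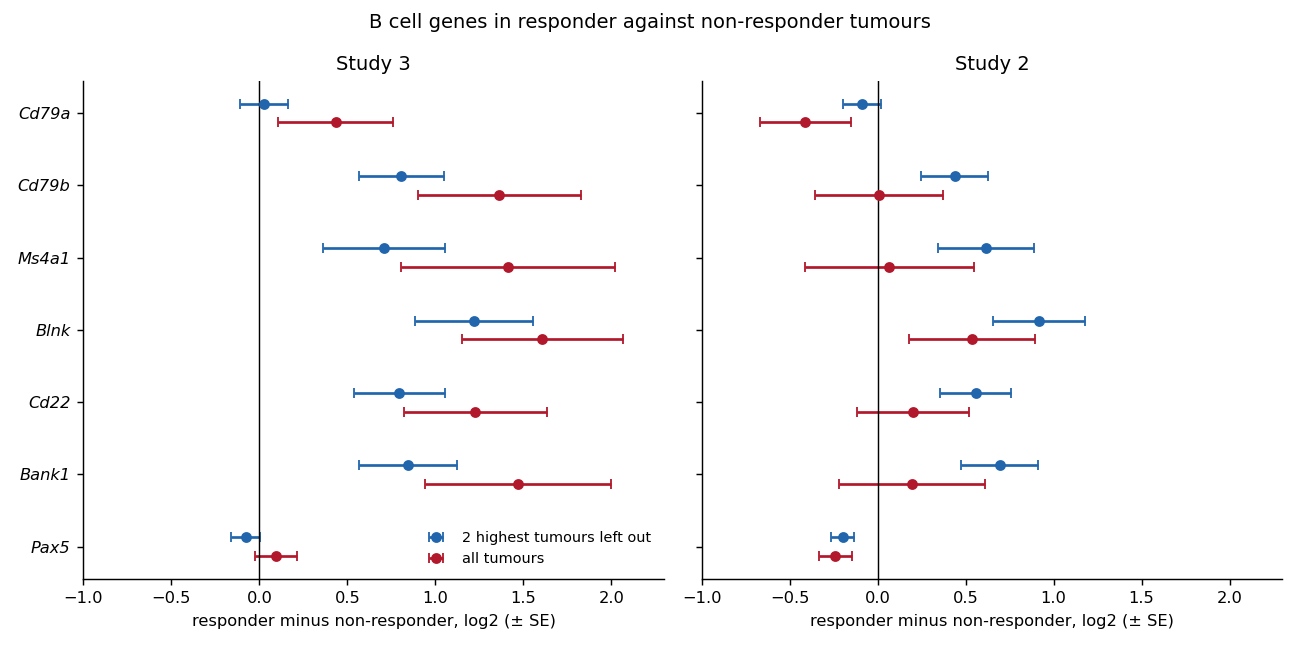
Log2 difference, responder minus non-responder, for each gene in study 3 (left) and study 2 (right), with all tumours (red) and without the 2 highest tumours (blue), bars giving limma's standard error. Blnk stands at 1.22 in study 3 and 0.92 in study 2 without the pair, and which way each study moves follows from the side on which its tumour was left out.

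Against IgG, responders over both studies were higher in 4 of 7 genes by limma and lower in 0, against 15.3% of all genes higher and 20.1% lower. Blnk was higher by 1.05 ± 0.30 (SE), Cd22 by 0.94 ± 0.26, Bank1 by 0.92 ± 0.34 and Cd79b by 0.76 ± 0.30 on the log2 scale, with adjusted p-values of 0.00595, 0.00613, 0.0315 and 0.0414. Without the 2 high tumours the same number passed, against 13.7% higher and 16.5% lower, at 0.86 ± 0.21 for Blnk, 0.72 ± 0.17 for Cd22, 0.60 ± 0.18 for Bank1 and 0.48 ± 0.16 for Cd79b. Leaving out study 3 responder replicate 3 alone left 2 calls, Blnk and Cd22, with the share of all genes called given below.

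Non-responders did not separate from IgG tumours in any of the 7 genes. By limma 0 of 7 passed and 0 had an unadjusted p under 0.05, against 0.0055% of all genes called in either direction. The differences ran from -0.02 to 0.29, and without the 2 high tumours from -0.21 to 0.13. Between IgG and PBS tumours 0 of 7 genes passed by limma and 0 had an unadjusted p under 0.05, against 0.0055% of all genes, and the largest difference was 0.23.

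Relapse tumours, which had regressed and regrown, had B cell transcript levels spread over a wide range. Blnk read 8.28, 7.19 and 8.68 in the 3 study 3 relapse tumours and 7.76, 6.93 and 7.31 in the 3 of study 2. Bank1 read 6.34, 5.01 and 8.40 in study 3 relapse tumours and 5.21, 4.71 and 4.89 in study 2. Ms4a1 read 6.40, 4.72 and 9.51 in study 3 and 5.19, 4.62 and 4.39 in study 2. Replicate 3 of study 3 was the highest relapse tumour in all 7 genes but Pax5, and study 2 relapse tumours lay close together. In study 3 relapse replicate 3, lymphoid tissue genes averaged 6.51, against 5.43 in replicate 1 and 5.11 in replicate 2. Adipocyte genes averaged 9.72, against 9.02 and 6.74. The part of such tissue in its B cell levels was not tested.

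Relapse tumours differed from non-responders in 0 of 7 genes by limma, with 1, Blnk, at an unadjusted p under 0.05, against 9.96% of all genes higher and 14.1% lower. The Blnk difference was 1.04 ± 0.46 (SE), with an adjusted p of 0.0754. Without the 2 high tumours 5 of 7 were higher, against 15.3% of all genes higher and 20.1% lower: Blnk by 1.23 ± 0.33, Bank1 by 1.14 ± 0.27, Ms4a1 by 1.03 ± 0.34, Cd79b by 0.84 ± 0.24 and Cd22 by 0.70 ± 0.25. That fit keeps the high study 3 relapse replicate 3 among the 6 relapse tumours. Leaving it out as well, a choice made after seeing the data, left Blnk alone past the threshold of limma, at 1.08 ± 0.36, with Bank1 at 0.68 ± 0.27, against 6.91% of all genes higher and 10.1% lower. Relapse against IgG gave 0 of 7 by limma with 1, Blnk, at an unadjusted p under 0.05, and 1.09% of all genes called. Without the pair, Bank1 (0.97 ± 0.27) and Blnk (1.03 ± 0.33) were higher than in IgG tumours, against 3.55% of all genes higher and 2.6% lower. Neither tumour of the pair is a relapse or IgG tumour, so both differences are those of the fit with all tumours, where the SE was 0.54 and 0.46; only the shared spread became smaller. With study 3 relapse replicate 3 left out too, 0 of 7 passed by limma and 1, Blnk, had an unadjusted p under 0.05, at 0.87 ± 0.36, with 0.0165% of all genes called. Relapse against responder tumours gave 0 of 7 by limma and 0 at an unadjusted p under 0.05, with 0% of all genes called and differences from -0.19 to 0.05.

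Stabilization tumours of study 3 had the highest Blnk median of the 12 groups, on 3 tumours. Blnk read 10.57, 9.74 and 7.08 in them, and Cd22 read 8.60, 8.68 and 6.77. Cd79b read 7.98, 7.73 and 6.51, and Ms4a1 6.71, 5.89 and 5.01. Replicates 1 and 2 were high and replicate 3 was low in each of these genes. Melanocyte genes averaged between 6.90 and 10.00 across the 3 tumours and macrophage genes between 9.52 and 11.74; their part in the Blnk level was not tested. Against responders of study 3, 0 of 7 genes passed by limma and 0 had an unadjusted p under 0.05, with 0.11% of all genes called, and Blnk differed by 0.90 ± 0.65 (SE). Without stabilization replicate 3 the Blnk difference was 1.92 ± 0.74, with an adjusted p of 0.0932 by limma.

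Growth delay tumours numbered 2, both in study 2. Blnk read 5.89 and 6.72 in them, Cd79b 6.08 and 5.74, and Bank1 4.47 and 4.31, all inside the IgG ranges. Against IgG, 0 of 7 genes passed by limma and 0 had an unadjusted p under 0.05, with 0% of all genes called and differences from -0.55 to -0.02.

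Across tumours, 5 of the genes moved together and 2 did not. Over the 88 tumours left after the 2 high ones, Spearman's rho between Cd79b, Ms4a1, Blnk, Cd22 and Bank1 ran from 0.54 (Ms4a1 with Cd22) to 0.72 (Blnk with Cd22). Cd79a had rho between -0.05 and 0.27 with the other 6 genes, and 0.27 with Cd79b, its partner in the receptor. Pax5 had rho of -0.40 with Blnk and -0.09 with Cd79b. These are descriptions of tumours that share arrays and normalization and differ in outcome.

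Blnk, Bank1 and Cd22 each had at least as high a rho with a list of other cells as with the B cell list. Blnk had rho of 0.82 with the mean of 10 macrophage genes, 0.79 with that of 18 other B cell genes, 0.77 with plasma cell genes and 0.69 with T cell genes, and Bank1 had 0.81, 0.79, 0.77 and 0.73. Cd79b had rho of 0.75 with other B cell genes and with plasma cell genes, 0.67 with T cell genes and 0.64 with macrophage genes. Ms4a1 had 0.71, 0.71, 0.60 and 0.54 with the same lists. Cd22 had rho of 0.77 with T cell genes and 0.70 with macrophage genes, beside 0.69 with other B cell genes and 0.69 with plasma cell genes. With melanocyte genes the rho of these 5 genes was negative, between -0.50 for Cd79b and -0.32 for Cd22. BLNK is also made in macrophages, so its level in bulk tissue is not a measure of B cells alone.

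**Figure D5:**
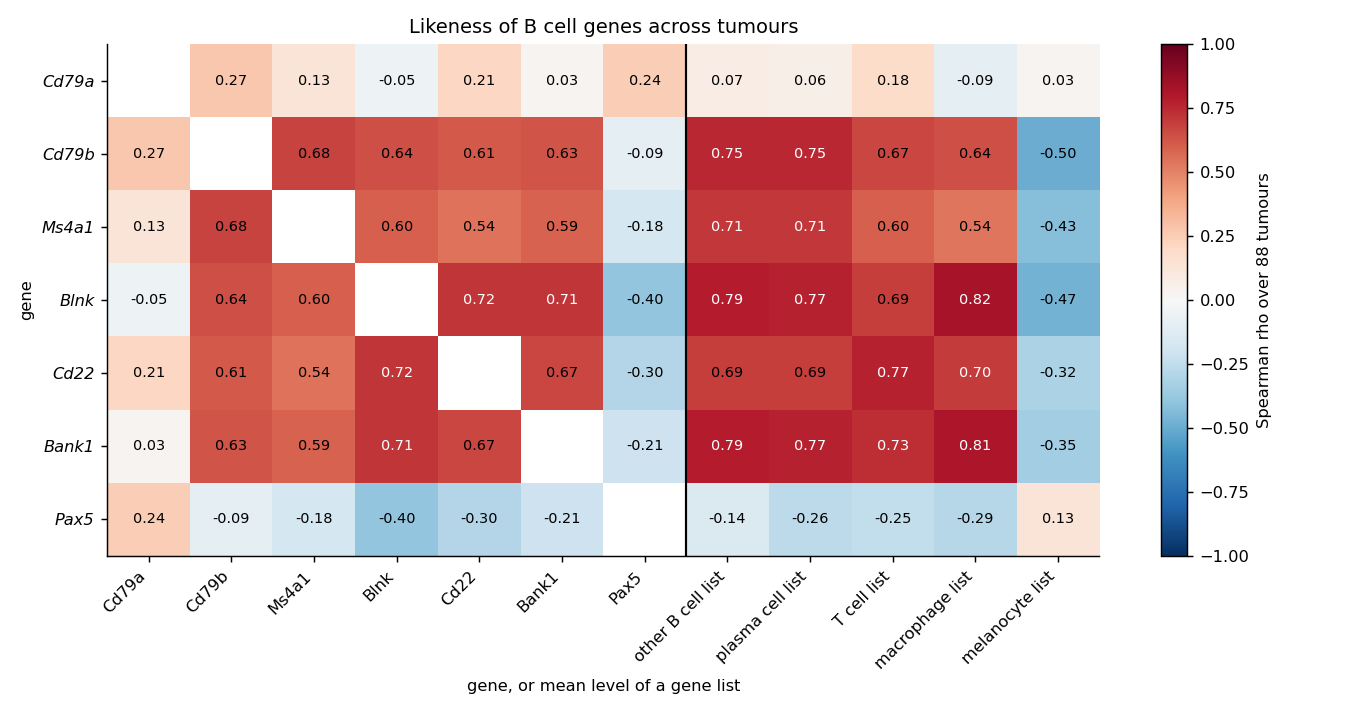
Spearman's rho over 88 tumours (colour and printed value) between pairs of the 7 genes, left of the line, and between each gene and the mean log2 level of 5 gene lists, right of it. Cd79b, Ms4a1, Blnk, Cd22 and Bank1 form a block from 0.54 to 0.72, with Cd79a and Pax5 outside it.

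The genes whose level was most like the mean of the 7 over all 90 tumours were, by Spearman's rho, Cxcl16 (0.88), Cd52 (0.88), AB124611 (0.87), Ly86 (0.86), Lst1 (0.86), Coro1a (0.86), Aif1 (0.86), Gimap8 (0.86), C1qb (0.86) and Vcam1 (0.86). Over the 88 tumours rho of these 10 lay between 0.85 and 0.87. Among the 7 genes themselves, rho with their mean was 0.87 for Cd79b, 0.83 for Blnk, 0.82 for Cd22 and Bank1, 0.79 for Ms4a1, 0.30 for Cd79a and -0.06 for Pax5, and each gene is part of that mean.

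Other B cell genes were read in the same responder comparison over both studies, each list beside the 18.9% of all genes higher and 32.3% lower. Of 18 other surface and identity genes, 7 rose and 0 fell, led by Cd83 (1.06 ± 0.24, SE), an activation marker that dendritic cells also carry, Cd180 (0.67 ± 0.15), Cd37 (1.02 ± 0.25) and Cd40 (0.48 ± 0.12). The members of the list that did not pass had log2 differences from -0.08 for Fcer2a to 0.53 for Ly6d, and the median of the list was 0.33. Without the 2 high tumours 9 of the 18 rose.

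Of 14 genes of B cell receptor signalling, 12 rose and 1 fell over both studies. Prkcb (1.51 ± 0.29, SE), Pik3ap1, the adaptor BCAP (1.11 ± 0.22), Malt1 (0.89 ± 0.18) and the kinase Syk (1.24 ± 0.26) led the list, and many of its genes also act in myeloid cells. The count without the 2 high tumours was again 12 and 1. The median log2 difference of the list was 0.75, beside -0.06 over all genes.

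Of 13 B lineage transcription factors, 6 rose and 1 fell. Irf8 (1.49 ± 0.24, SE) and Ikzf1 (1.56 ± 0.28), which also serve other blood lineages, Bcl6 (0.77 ± 0.19) and Foxo1 (0.49 ± 0.14) led it. Without the 2 high tumours 8 rose and 1 fell. Pax5 itself, a gene of this class, had a difference of -0.07 and did not pass.

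Of 9 survival and homing signals for B cells, 4 rose and 0 fell, with and without the pair: Tnfsf13b, which encodes the survival factor BAFF (0.75 ± 0.14, SE), the chemokine Cxcl12 (1.51 ± 0.42), Il7 (0.32 ± 0.09) and the receptor Tnfrsf13b (0.77 ± 0.23). Of 11 plasma cell genes, 5 rose and 1 fell. Prdm1, the plasma cell regulator that T cells also use (1.11 ± 0.22), Ighm, the heavy chain of IgM (1.91 ± 0.39), and Jchain, the joining chain of polymeric antibody (2.00 ± 0.46), rose, and Fkbp11 fell (-0.65 ± 0.15). Without the pair 6 rose and 1 fell.

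Markers of other cells were read in the same comparison, beside the same 18.9% of all genes higher and 32.3% lower. T cell genes rose in 8 of 9 and macrophage genes in 9 of 10, with list medians of 1.08 and 0.93, and melanocyte genes fell in 4 of 10, with a median of -0.32. The melanocyte count is near the 32.3% of all genes called lower and is no result about that list. The mean of macrophage genes ran from 9.25 to 11.49 in study 3 responders, against 8.72 to 9.75 in non-responders, and from 7.94 to 11.37 in study 2 responders, against 7.76 to 11.34 in non-responders. The mean of T cell genes ran from 6.03 to 9.22 in study 3 responders, against 5.11 to 6.10 in non-responders, and from 5.16 to 7.37 in study 2 responders, against 4.98 to 9.16 in non-responders. Adipocyte genes rose in 3 of 5 over both studies, in 5 of 5 within study 3 and in 0 of 5 within study 2. The shares of all genes higher were 14.4% in study 3 and 0.616% in study 2. In study 3 the median of the adipocyte mean was 9.02 in relapse and 8.12 in responder tumours. It was 7.17 in IgG, 6.94 in stabilization and 6.10 in non-responder tumours. Over both studies, 3 of 12 lymphoid tissue genes rose and 3 fell, with a list median of 0.03. Those counts are near the shares of all genes and are no result about that list. Among its genes, Ltb, a cytokine of lymphoid organs, stood at 1.61 ± 0.30 (SE), the homing receptor Ccr7 at 0.92 ± 0.21 and Madcam1 at -0.32 ± 0.06. Of 7 skeletal muscle genes 0 passed by limma, and without the 2 high tumours 0 had an unadjusted p under 0.05. The melanocyte genes that fell were Gpr143 (-0.77 ± 0.21, SE), Pmel (-1.03 ± 0.31), Oca2 (-0.27 ± 0.09) and Slc45a2 (-0.63 ± 0.27). Of the markers that define melanocytes, Pmel is among these. Mlana (-0.67 ± 0.30), Dct (-0.30 ± 0.18), Tyrp1 (-0.34 ± 0.21) and Tyr (-0.05 ± 0.05) did not pass. Dct read between 9.99 and 14.42 and Tyrp1 between 8.66 and 13.91 in responders. Tyr, which encodes tyrosinase, read between 3.38 and 3.76 in responders, near the lowest values on the arrays. The part of these cells in the levels of the 7 genes was not tested.

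Cd22, Ms4a1 and Pax5 have a further probe set each. Spearman's rho between the probe sets of a gene over the 88 tumours was 0.78 for Cd22, 0.57 for Ms4a1 and 0.32 for Pax5. With the dimmer probe set, the responder difference over both studies was 0.50 ± 0.25 (SE) for Cd22 and 0.27 ± 0.33 for Ms4a1, neither past the threshold by limma, and -0.20 ± 0.06 for Pax5, with an adjusted p of 0.00725. Cd79b, whose own values are the same in that fit, then had an adjusted p of 0.0517. In this comparison the call of Cd22 rests on its brighter probe set. With all tumours kept, Pax5 is lower in responders only on its dimmer probe set. That probe set read at most 5.37 in study 2 non-responders, with a median of 5.07, and the group holds replicate 14. Whether either Pax5 probe set follows Pax5 RNA was not tested, so no fall of Pax5 RNA is shown, with or without the 2 high tumours. Fitting only the 4 groups of this comparison, with their own spread, left Blnk alone past the threshold of limma, at 1.07 ± 0.33 (SE). The share of all genes called in that fit is given below with the other settings, so this is no result about Blnk alone.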

How the data were processed

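The deposited values are log2 expression levels per probe set of 90 tumours, made by the authors with RMA, per the submitters' processing notes, which also name limma. Joint or separate normalization of the 2 studies: not stated in those notes. Precision is limited by the number of arrays. Values lay between 2.19 and 14.84, and array medians between 5.71 and 5.90.

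Of 45101 probe sets, 34958 name 1 gene symbol in the platform annotation, 932 several and 9211 are not named here. The brightest probe set stood for each of 18194 genes. Groups came from the labels. A single limma model (version 3.58.1, R 4.3.3) held a mean for each of the 12 groups and was fitted to every array; contrasts over both studies weighted them equally. P-values were 2-sided and Benjamini-Hochberg adjusted across the 18194 genes, and 0.05 was the threshold. The model was tested on simulated normal values with 1 spread per gene, shared by all groups. That test does not cover single tumours far above their group. Errors are limma's standard errors (SE). Levels and Spearman's rho were computed with pandas 2.3.3 and SciPy 1.17.1 in Python 3.11.15.

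The 7 genes, the 11 comparison lists and the rules for naming genes were chosen with earlier results of these data known. All 7 are named, with up to 4 genes per list by smallest p and the 10 most alike by rho. Further genes were named without regard to p. Cr2, Glycam1, Cxcl13, Mlana, Dct, Tyrp1 and Tyr were named as cell markers. Fcer2a and Ly6d were named as the ends of a range. A tumour is far above its group at over 2 log2 units above the median, and singled out where this holds for at least 4 of the 7. List genes without a probe set naming them alone were not analysed here. Alternatives tried were the prior variance, array weights, normal scores, the probe set per gene, the samples fitted, a filter on dim genes, the normalization, the threshold and tumours left out.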

Additional observations from a re-analysis of the deposited data

Results flagged for a closer look

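In groups of 4 to 10 tumours, the highest and lowest tumour were compared with the rest by Dixon's gap ratio, in 28 combinations of gene and group; chance alone flags some such groups. A tumour stood apart in 9 combinations. Of these, 6 were study 3 responder replicate 3, with log2 levels of 9.49 for Cd79a (next tumour 5.77), 12.58 for Cd79b (7.45), 12.65 for Ms4a1 (6.56), 11.89 for Cd22 (9.30), 11.86 for Bank1 (6.45) and 7.53 for Pax5 (6.15). The other 3 were in other groups. Cd22 read 7.42 in study 3 non-responder replicate 3, with the next tumour at 6.90. Ms4a1 read 7.17 in study 3 IgG replicate 3, with the next at 5.46, and 5.12 in study 3 PBS replicate 4, with the next at 4.60. Groups of more than 10 tumours were not tested this way, which leaves out study 2 non-responder replicate 14.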

How the results depend on the processing

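Of the counts of called genes, 29 of 171 moved by over 1.5 times, or to or from 0, under another setting. When each tumour of the small groups was left out in turn, 0 of 30 did. All 30 belong to comparisons with 0 of 7 genes called in the main fit. A smaller group gives a test less power, so that result says little about stability. The share of all genes called moved too and is given after each count of the 7 genes. The counts are therefore not results about the 7 alone. The 5 tumours low in melanocyte transcripts are the 2 high tumours with study 3 responder replicate 4 and stabilization replicates 1 and 2. Leaving out the 2 and leaving out the 5 are therefore overlapping settings and not separate checks. Responder against non-responder over both studies (4 higher, 51.2%) gave 1 at a threshold of 0.01 (29.5%), 1 when only the groups compared were fitted (46.6%), and 2 without study 3 responder replicate 3 (45.4%), of which Blnk was higher and Pax5 lower, so 1 of the 4 calls remained. Within study 3 (4, 36.7%) these settings gave 1 (14.3%), 1 (17.3%) and 1 (22.9%), higher each time. Within study 2 (0, 2.63%), the following included Pax5 as 1 lower call: normal scores 1 (5.21%), median centring 1 (16.8%), array weights 4 (42.6%), the 2 high tumours out 4 (18.2%), the 5 tumours low in melanocyte transcripts out 4 (24.9%), and study 3 responder replicate 3 out 1 (3.36%); study 2 non-responder replicate 14 out gave 1 higher (15.8%). Responder against IgG (4, 35.4%) gave 2 at 0.01 (15.1%) and 2 without study 3 responder replicate 3 (27.2%). Relapse against non-responder (0, 24.0%) gave 2 with normal scores (28.4%), 6 with array weights (58.4%), 1 lower with the mean of all probe sets (21.9%), 1 lower with the dimmest probe set (16.1%), 5 without the 2 high tumours (35.4%), 5 without the 5 (41.3%), 2 without study 2 non-responder replicate 14 (32.9%) and 1 without the 2 and study 3 relapse replicate 3 (17.0%). Relapse against IgG (0, 1.09%) gave 1 with normal scores (3.67%), 6 with array weights (48.4%), 3 when only the groups compared were fitted (21.3%), 2 without the 2 high tumours (6.15%) and 4 without the 5 (14.1%). Stabilization against responder (0, 0.11%) gave 4 with array weights (63.3%), whose estimation stopped before its tolerance was met. The dimmest probe set and the 3 tumours left out together were chosen after seeing the data. Median centring moved the share of calls that were higher to 20.3% in study 3, against 39.1%, to 22.1% for responder against IgG, against 43.3%, to 12.1% for relapse against non-responder, against 41.5%, to 9.78% for relapse against IgG, against 35.4%, and to 8.62% in study 2, against 23.4%; the median of all genes in study 3 was -0.18 with it and -0.08 without.

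Small differences changed sign. Cd79a over both studies (0.01) was -0.0828 with normal scores, -0.0690 with array weights, -0.0751 with median centring, -0.0297 without the 2 tumours, -0.0523 without the 5, and between -0.19 and 0.17 without 1 of the 2; in study 3 it was -0.0151 with array weights and -0.0179 without the 5. Pax5 in study 3 (0.10) was -0.11 with normal scores, -0.0307 with array weights, -0.0740 with the mean of all probe sets, -0.0114 with median centring, -0.0784 without the 2 tumours or without study 3 responder replicate 3, -0.0536 without the 5 and -0.24 with the dimmest probe set. In study 2, Ms4a1 (0.07) was -0.14 with the mean of all probe sets, -0.00055 with median centring and -0.36 with the dimmest probe set, and Cd79b (0.01) was -0.0609 with median centring and -0.0121 with quantile normalization within study. The causes were not tested. Robust prior variance moved no count. Leaving out the lowest 40% of genes by mean left 3 of the 7 to test, Cd79b, Blnk and Cd22, and kept their calls over both studies.

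No paired analysis was possible because each tumour carries its own animal number and the replicate numbers only follow the order of the samples. Small groups, of 2 to 4 tumours, limit every statement on relapse, stabilization, growth delay and PBS.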
